A study of Homo sapiens with 6 samples.

Results

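The serine/arginine-rich (SR) splicing factors are followed here as 10 genes, SRSF1, SRSF2, SRSF3, SRSF4, SRSF5, SRSF6, SRSF7, SRSF9, SRSF10 and SRSF11, out of 38100 genes in the deposited tables. They were taken by symbol, with earlier results of these data known. All 10 passed the filter on low counts, among 17720 genes tested. The cells were HK2, an immortalised line of human kidney proximal tubular epithelium with a wild-type genotype label. One group received an empty-vector adenovirus (AdCtrl) and the other an adenovirus that expresses SIRT4 (AdSIRT4), a sirtuin best known from mitochondria. Both groups were stimulated with TGF-β1, the cytokine that drives fibrotic responses in tubular cells, so no unstimulated sample enters any comparison. Each group had 3 samples, and these 6 samples are the whole series. The question for these genes is whether raised SIRT4 goes with a different supply of SR factor mRNA in TGF-β1-treated tubular cells.

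SR proteins bind short exonic sequences through RNA recognition motifs and recruit the U1 and U2 machinery to nearby splice sites through a tail rich in alternating arginines and serines, the RS domain. SRPK and CLK kinases phosphorylate that tail, which sets the protein's nuclear import, its release from nuclear speckles and its activity. Many SR genes also limit their own output, by splicing in a poison exon or keeping an intron so that the mRNA is degraded by nonsense-mediated decay (NMD). In GENCODE 29 all 10 members had at least 1 transcript annotated as an NMD target, which was true of 35.7% of 19940 protein-coding genes, and 8 had a retained-intron transcript, which was true of 46.2%. Their median was 10 annotated transcripts against 6 over protein-coding genes, from 2 for SRSF6 to 19 for SRSF5. Reads counted on a whole gene pool productive and NMD-type transcripts, so the levels below are the sum of both.

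The arginine-serine tail is shown for 5 members because it defines the family and differs in length between its members. Each line holds 75 bases of coding sequence from the GENCODE 29 transcripts (GRCh38), 5′ to 3′ in frame, taken where the arginine-serine pairs were densest. Capitals mark codons of an arginine next to a serine.
SRSF2: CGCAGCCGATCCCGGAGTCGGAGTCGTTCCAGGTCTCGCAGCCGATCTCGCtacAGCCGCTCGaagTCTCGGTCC
SRSF3: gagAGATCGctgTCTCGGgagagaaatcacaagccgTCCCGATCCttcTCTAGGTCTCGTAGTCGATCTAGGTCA
SRSF4: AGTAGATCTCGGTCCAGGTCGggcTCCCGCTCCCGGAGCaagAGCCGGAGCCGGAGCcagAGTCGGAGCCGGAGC
SRSF6: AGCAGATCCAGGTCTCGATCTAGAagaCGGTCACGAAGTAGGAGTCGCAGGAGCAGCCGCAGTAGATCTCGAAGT
SRSF9: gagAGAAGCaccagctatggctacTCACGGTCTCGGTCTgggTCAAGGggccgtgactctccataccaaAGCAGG
Along the whole coding sequence, SRSF4 had 113 such pairs in 494 codons and SRSF6 had 76 in 344. SRSF2 had 52 in 221 codons. SRSF3 encodes the shortest protein of the 10, with 25 pairs in 164 codons. SRSF9 had 9 pairs in 221 codons, the fewest of the 10.

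The libraries held from 41537353 to 85684748 counts on genes, and a member's count lay between 4828 and 34608 in every sample. SIRT4 itself was at 0.573, 1.11 and 1.11 CPM (counts scaled by library size, with TMM factors) in the AdCtrl samples and at 51.2, 92.7 and 84.0 CPM in the AdSIRT4 samples. Its log2 fold change was 6.36 ± 0.357 (standard error; edgeR adjusted p = 0.00801), and 6.59 without AdSIRT4 replicate 1. Of 10 tubular epithelial genes, 9 reached 1 CPM in every sample and CDH1, which encodes E-cadherin, stayed under 1 CPM. Their summed level was 1930 to 1979 CPM in AdCtrl and 1853 to 2416 CPM in AdSIRT4. All 5 endothelial markers were under 1 CPM in every sample, as were 4 of 5 leukocyte markers and 3 of 5 fibroblast markers. The fibroblast marker LUM was at 14.5 to 22.0 CPM and the leukocyte marker CD14 at 1.93 to 2.95 CPM. PDGFRB, a fibroblast and pericyte marker, reached 1 CPM in AdCtrl replicate 3 only. Of 5 neural markers, 2, NEFL and TUBB3, reached 1 CPM in every sample and NEFM in some. AdSIRT4 replicate 1 stood apart from the other libraries. Its FPKM values summed to 447768 over all genes, against 359104 to 373951 in the other 5, and its levels ran with transcript length. Differences between the groups are therefore given with and without it. In a bulk sample, fewer cells with a transcript and less of it per cell cannot be told apart.

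With all 6 samples and on counts, every one of the 10 SR genes had a higher fitted level in AdSIRT4 than in AdCtrl. That direction was found in 53.4% of all genes tested, and no single member reached an adjusted p under 0.05 (edgeR). Without AdSIRT4 replicate 1, the log2 fold change was -0.049 for SRSF9, 0.038 for SRSF7 and 0.054 for SRSF4. The share of all genes higher in that fit is not given here. On log2(FPKM + 1) with all samples, SRSF4 was at -0.10. SRSF3 differed most, at 1.57-fold, followed by SRSF2 at 1.37-fold and SRSF6 at 1.34-fold. These 3 had an unadjusted p under 0.05, against 7.93% of all genes in either direction and 4.43% of them higher. Called at an adjusted p under 0.05 were 0 of the 10 members and 0.0113% of all genes (edgeR). Without AdSIRT4 replicate 1, the same test called SRSF3 and SRSF6, both higher, against 6.71% of all genes called in either direction and 3.37% called higher. In that fit library depth differed with group, as given above. The same pair was called by limma voom with sample quality weights on all 6 samples (9.51% of all genes) and with the length trend of each library removed and AdSIRT4 replicate 1 left out (9.26%). The median log2 fold change of the members was 0.25 with all samples and 0.12 without that replicate, where all genes tested had 0.021 and -0.0028.

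The groups did not overlap in SRSF1, SRSF2, SRSF3, SRSF5, SRSF6 and SRSF10, with all 3 AdSIRT4 values above all 3 AdCtrl values. Non-overlapping groups were found in 19.4% of all genes and in this direction in 9.66%. The same 6 members were apart without AdSIRT4 replicate 1, when 21.0% of all genes were higher without overlap. For a single gene the two-sided exact permutation test of the mean CPM cannot go below p = 0.1 with 3 samples against 3, and these 6 members each gave that p.

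**Figure D1:**
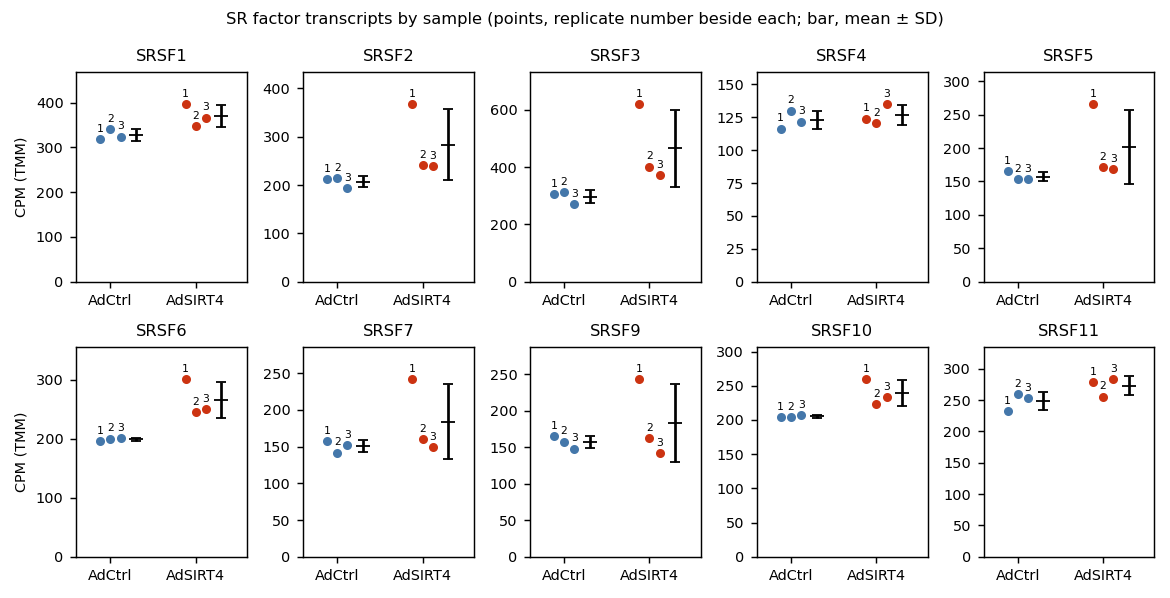
Each panel plots one SR gene, with the level in CPM on the vertical axis from 0 and the 3 AdCtrl (blue) and 3 AdSIRT4 (red) samples as points numbered by replicate; the black bar is the mean ± SD. AdSIRT4 replicate 1 is the highest of the 6 points in 8 panels. In SRSF1, SRSF2, SRSF3, SRSF5, SRSF6 and SRSF10, AdSIRT4 replicates 2 and 3 also lie above every AdCtrl point.

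SRSF3 (chromosome 6, 36594353 to 36605600, plus strand, GRCh38) is an exonic activator that also links spliced mRNA to the export receptor NXF1. It measured 306.1, 313.1 and 270.9 CPM in AdCtrl, in the order of the replicate numbers used for every gene below, and 619.8, 401.4 and 372.8 CPM in AdSIRT4. The lowest AdSIRT4 value was above the highest AdCtrl value, and AdSIRT4 replicate 1 was far above the other two. The means were 296.7 ± 22.6 and 464.6 ± 135.1 CPM (SD, n = 3 each). The log2 fold change was 0.65 ± 0.206 (standard error), with an adjusted p of 0.545 (edgeR, Benjamini-Hochberg). It was 0.38 ± 0.0682 without AdSIRT4 replicate 1, with an adjusted p of 0.0116. The adjusted p of SRSF3 ran from 6.91e-08 to 1 over 20 alternative settings. That lower end came from the replicate-number block fit without AdSIRT4 replicate 1, which keeps 1 residual degree of freedom and was chosen with the data in view, and the next lowest was 0.00884, from limma voom with sample quality weights.

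SRSF6 (chromosome 20, 43457928 to 43464247, plus strand) carries a pair of RNA recognition motifs and a long RS domain. Its levels were 195.3, 200.1 and 200.6 CPM in AdCtrl and 301.0, 245.2 and 249.5 CPM in AdSIRT4. The AdCtrl samples lay close together and all 3 AdSIRT4 samples were clear of them. The means were 198.6 ± 2.94 and 265.3 ± 31.1 CPM. The log2 fold change was 0.42 ± 0.114 (adjusted p = 0.498, edgeR) and 0.31 ± 0.0488 without AdSIRT4 replicate 1 (1.24-fold, adjusted p = 0.00677). With all 6 samples, DESeq2 gave SRSF6 an adjusted p of 0.0471, the 1 member it called, against 1.16% of all genes. Its adjusted p ranged from 3.3e-05 in that block fit to 1 over the 20 alternatives, with 0.00636 the next lowest, again from limma voom.

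**Figure D2:**
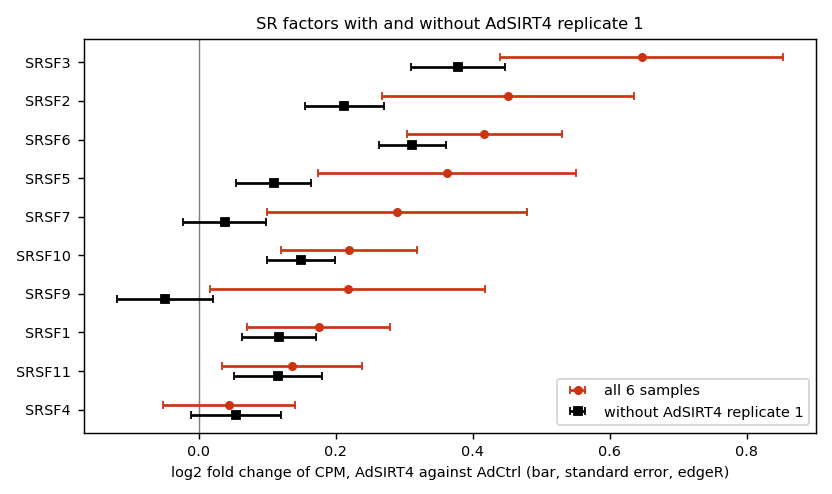
The horizontal axis is each SR gene's log2 fold change, AdSIRT4 over AdCtrl, with all 6 samples (red circles) and without AdSIRT4 replicate 1 (black squares); bars are the standard error from edgeR. SRSF3 moves from 0.65 to 0.38 and SRSF6 from 0.42 to 0.31, while SRSF9 crosses 0, from 0.22 to -0.049.

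SRSF2 (chromosome 17, 76734115 to 76737374, minus strand), a protein found in nuclear speckles, was at 212.1, 215.1 and 193.9 CPM in AdCtrl and 367.8, 242.1 and 239.4 CPM in AdSIRT4. All 3 AdSIRT4 samples were above the AdCtrl samples, with replicate 1 set far above the rest. Its log2 fold change was 0.45 ± 0.184 (adjusted p = 0.619, edgeR). Without AdSIRT4 replicate 1 it was 0.21 ± 0.0579, with an adjusted p of 0.0515, and over the 20 alternatives its adjusted p ran from 0.00131, in the same block fit, to 1. SRSF2 overlaps MFSD11 on the other strand, and whether the counting used strand is not given in the sources used here, so its reads are uncertain. MFSD11 had a log2 fold change of 0.096 ± 0.123, and -0.025 without AdSIRT4 replicate 1.

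SRSF1 (chromosome 17, 58003360 to 58007346, minus strand), the founding member, which strengthens weak splice sites through exonic enhancers, showed 317.6, 341.5 and 323.8 CPM in AdCtrl and 396.8, 347.0 and 366.2 CPM in AdSIRT4. The groups were apart, but the gap between the nearest samples was small beside the spread within a group. The log2 fold change was 0.18 ± 0.104 (adjusted p = 0.718, edgeR) and 0.12 without AdSIRT4 replicate 1. AC015813.2 lies over SRSF1 on the same strand, so these reads are uncertain, as set out with the weighted lengths below. SRSF7 (chromosome 2, 38743599 to 38751494, minus strand), a partner of NXF1 in mRNA export like SRSF3, was at 157.6, 142.0 and 152.5 CPM in AdCtrl and at 242.3, 160.8 and 149.6 CPM in AdSIRT4. AdSIRT4 replicate 3 lay inside the AdCtrl range and only replicate 1 was far above it. Its log2 fold change was 0.29 ± 0.190 (edgeR adjusted p = 0.731) and 0.038 when that replicate was left out.

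SRSF4 and SRSF5 share the paired RNA recognition motifs of SRSF6. SRSF5 (chromosome 14, 69726900 to 69772005, plus strand) measured 165.1, 153.3 and 153.1 CPM in AdCtrl and 265.9, 171.3 and 169.0 CPM in AdSIRT4. The groups were apart, and replicates 2 and 3 of AdSIRT4 were close above the highest AdCtrl sample. Its log2 fold change was 0.36 ± 0.188 (adjusted p = 0.693, edgeR) and 0.11 without AdSIRT4 replicate 1. SRSF4 (chromosome 1, 29147743 to 29181987, minus strand) was at 116.3, 129.9 and 121.6 CPM in AdCtrl and at 123.9, 120.4 and 135.1 CPM in AdSIRT4. The groups overlapped and AdSIRT4 replicate 1 was in the middle. The log2 fold change of SRSF4 was 0.045 ± 0.0965 on counts, 0.054 without AdSIRT4 replicate 1 and -0.10 on log2(FPKM + 1), so its direction depended on the scale.

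The remaining 3 members differ from the classical SR proteins in their tails or their activity. SRSF9 (chromosome 12, 120461668 to 120469793, minus strand), with the short tail shown above, was at 165.6, 157.9 and 148.1 CPM in AdCtrl and 243.7, 162.6 and 142.2 CPM in AdSIRT4. The groups overlapped and its log2 fold change turned from 0.22 ± 0.201 to -0.049 ± 0.0700 without AdSIRT4 replicate 1 (edgeR adjusted p = 0.776 with all samples). It also overlaps GATC on the other strand. SRSF10 (chromosome 1, 23964804 to 23980927, minus strand), which represses splicing once dephosphorylated in mitosis or after heat shock, was at 203.7, 204.7 and 207.1 CPM in AdCtrl and 260.0, 223.4 and 233.4 CPM in AdSIRT4. The AdCtrl samples lay close together and the groups were apart, with a log2 fold change of 0.22 ± 0.0998 (adjusted p = 0.655, edgeR) and 0.15 ± 0.0496 without AdSIRT4 replicate 1. SRSF11 (chromosome 1, 70205682 to 70253052, plus strand), an SR-related protein of the spliceosome, was at 232.0, 259.3 and 252.5 CPM in AdCtrl and 278.9, 255.3 and 283.7 CPM in AdSIRT4. The groups overlapped, with a log2 fold change of 0.14 ± 0.102 (edgeR adjusted p = 0.745) and 0.12 without AdSIRT4 replicate 1.

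The 10 genes together took 2072, 2117 and 2024 CPM in AdCtrl and 3100, 2330 and 2341 CPM in AdSIRT4. All 3 AdSIRT4 sums were above the AdCtrl sums, and replicate 1 was well above replicates 2 and 3. Deviations of samples with the same replicate number correlated weakly, at 0.159 to 0.178, and the sample titles do not say that the numbers pair the samples. Differences within numbered pairs were also formed. The median difference over the members was 0.59 on the log2 scale in pair 1, 0.14 in pair 2 and 0.17 in pair 3, with 10, 8 and 8 of the 10 members above 0. Over all genes tested the median was 0.019, -0.00018 and 0.00068. The share of all genes above 0 within a pair is not given here, so the counts of members have no background. With the replicate number as a block, 0 members were called with all samples (0.00564% of all genes). Without AdSIRT4 replicate 1 the block left 1 residual degree of freedom and called SRSF2, SRSF3 and SRSF6, against 13.8% of all genes.

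AdSIRT4 replicate 1 was above every AdCtrl sample in 9 members and the highest of the 6 samples in 8, against 41.3% and 36.6% of all genes. On the log2 CPM scale it exceeded the mean of AdSIRT4 replicates 2 and 3 by a median of 0.45 over the members and by -0.010 over all genes tested. In this library short transcripts were high and long ones low. Genes were put into 10 bins of equal size by weighted transcript length (counts divided by FPKM and library size). The bin of the shortest exceeded replicates 2 and 3 by a median of 0.76, and in the bin of the longest the median was -0.66. SRSF9, at 1.32 kb, was 0.68 above replicates 2 and 3, inside the interquartile range of its bin. SRSF3, at 4.99 kb, was also 0.68 above them, although the interquartile range of its bin was from -0.37 to 0.060. SRSF6, SRSF1 and SRSF10, all over 4.8 kb, were 0.28, 0.15 and 0.19 above where the medians of their bins were -0.15, -0.66 and -0.41. The length of SRSF1 is uncertain, for the reason given with the weighted lengths below. Its bin, and its values with the length trend removed, are therefore uncertain too. SRSF2, SRSF5 and SRSF7 also lay above the upper quartile of their bins, SRSF11 lay within the range of its bin and SRSF4 below it. With each library's trend on length removed, the log2 fold change with all samples was 0.72 for SRSF3, 0.47 for SRSF6, 0.37 for SRSF2 and 0.084 for SRSF9, and no member reached an adjusted p under 0.05 (edgeR). The part that length or another property of this library has in the members' levels was not tested.

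**Figure D3:**
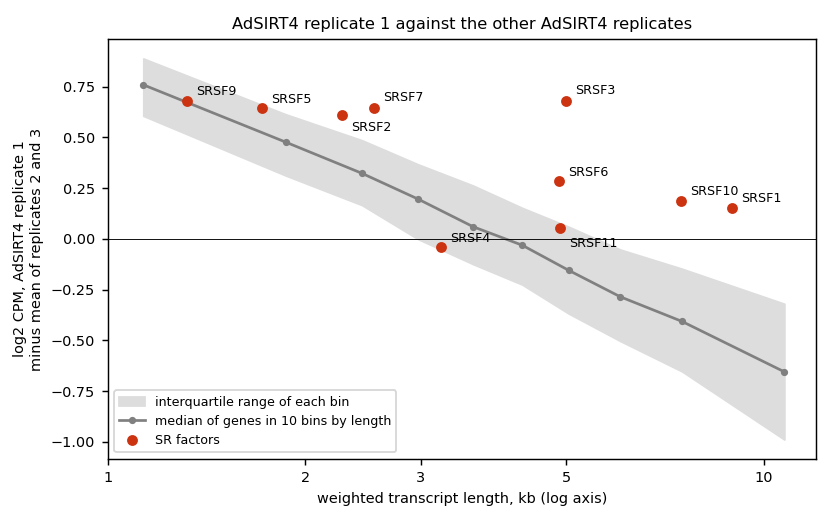
The vertical axis is log2 CPM of AdSIRT4 replicate 1 minus the mean of AdSIRT4 replicates 2 and 3, and the horizontal axis is weighted transcript length in kb on a log scale. The grey line and band are the median and interquartile range of genes in 10 bins by length, falling from 0.76 to -0.66, and red points are the SR genes; SRSF9 lies on the line while SRSF3 at 0.68 lies far above it.

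Levels of different genes were compared on the FPKM scale, which divides by length. In AdCtrl, SRSF9 was the most abundant at 120.5 ± 5.12 FPKM, clear of SRSF5 at 92.7 ± 4.70 and SRSF2 at 91.8 ± 2.97, whose ranges overlapped. SRSF3 (59.9 FPKM) and SRSF7 (59.8 FPKM) overlapped as well. SRSF11 followed at 51.5 FPKM, clear of both neighbours. SRSF6, SRSF4 and SRSF1 lay between 38.3 and 41.0 FPKM with each neighbour overlapping, and SRSF10 was lowest at 27.8 ± 1.32 FPKM. In AdSIRT4 the order was SRSF9, SRSF2, SRSF5, SRSF3, SRSF7, SRSF11, SRSF6, SRSF1, SRSF4 and SRSF10. Each of the first 5 overlapped the next of them over the 3 samples. In AdSIRT4 replicates 2 and 3 alone, SRSF3 at 78.9 FPKM was clear of SRSF7 at 63.7 FPKM. The reads of SRSF1 are uncertain, so its FPKM and its place in the order are too.

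The share of each gene in the summed FPKM of the 10 compares the members within a sample. SRSF3 made up 9.74%, 10.02% and 9.12% in AdCtrl and 13.1%, 11.9% and 11.3% in AdSIRT4. All 3 AdSIRT4 shares were above all AdCtrl shares. SRSF2 had 14.7% ± 0.439 in AdCtrl and 16.2% ± 0.598 in AdSIRT4, again without overlap. The shares of SRSF4, at 6.28% ± 0.304 and 4.90% ± 0.666, and SRSF1, at 6.15% ± 0.142 and 5.33% ± 0.258, were lower in AdSIRT4 without overlap. Each of these 4 differences had the smallest p that the two-sided exact permutation test allows, 0.1. The other 6 shares overlapped, and for SRSF9, with 19.4% ± 0.496 and 17.9% ± 1.41, the exact permutation p was 0.2. When AdSIRT4 replicate 1 was left out, the AdSIRT4 means were 11.6% for SRSF3, 15.8% for SRSF2, 5.21% for SRSF4 and 5.48% for SRSF1. SRSF6, at 7.71%, and SRSF9, at 17.3%, were then also apart from AdCtrl, and each of these 6 gave the smallest exact permutation p that 3 samples against 2 allow, 0.2. Shares add up to a fixed total, so a higher share of SRSF3 lowers the others. The doubt about the FPKM of SRSF1 carries over to its share and to the summed FPKM. All these shares hold for the FPKM scale only, which divides by length, and shares of summed counts were not compared. The weighted length of SRSF4 was 3.08, 3.16 and 3.29 kb in AdCtrl and 3.02, 3.68 and 3.64 kb in AdSIRT4. No background over other genes is given for the number of shares that were apart.

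**Figure D4:**
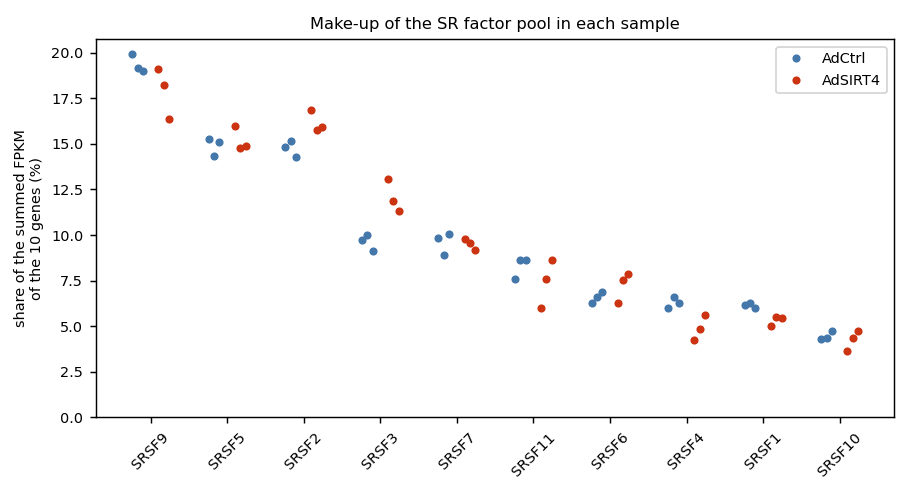
The vertical axis is the share of each SR gene in the summed FPKM of the 10 genes, in percent from 0, with 3 AdCtrl (blue) and 3 AdSIRT4 (red) samples per gene, ordered by the AdCtrl mean. The red points of SRSF3 (11.3% to 13.1%) and SRSF2 lie above the blue ones, those of SRSF4 and SRSF1 lie below, and the other 6 genes overlap.

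The weighted transcript length summarises the mixture of a gene's isoforms in a sample, as far as per-gene values allow. It was taken up after the deposited tables had been compared. It moved by under 1.05-fold over the 6 samples in 8 members. In SRSF1 it was 8.15, 8.73 and 9.13 kb in AdCtrl and 8.19, 9.33 and 10.1 kb in AdSIRT4, a 1.24-fold range. In SRSF4 it was 3.08, 3.16 and 3.29 kb in AdCtrl and 3.02, 3.68 and 3.64 kb in AdSIRT4, a 1.22-fold range. In both genes AdSIRT4 replicate 1 was below most AdCtrl samples while replicates 2 and 3 were above all of them. A range over 1.1-fold was seen in 9.03% of 11356 genes with enough counts. SRSF3 was the 1 member whose groups did not overlap, at 5.003 ± 0.0151 kb in AdCtrl and 4.960 ± 0.0257 kb in AdSIRT4, against 5.47% of all genes. No member differed at an adjusted p under 0.05 (0.0% of all genes) or at an unadjusted p under 0.05 (3.18%, limma). The log2 difference in length without AdSIRT4 replicate 1 was 0.17 for SRSF1 and 0.21 for SRSF4, and the lowest adjusted p of a member was 0.291, for SRSF7 (limma). The SRSF1 lengths are longer than the 3987 bases its gene spans in GENCODE 29, and RefSeq gives it a span of 18209 bases, and AC015813.2 lies over SRSF1 on the same strand, so its reads are uncertain.

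The promoters of SRSF3 and SRSF6 are shown because these 2 members were called without AdSIRT4 replicate 1. Both are RefSeq sequences on GRCh38.p14 from 250 bases before to 50 after the start, 5′ to 3′ on the gene's strand, SRSF3 at chr6:36594112-36594411 and SRSF6 at chr20:43457646-43457945, both on the plus strand. Capitals mark matches on either strand to 8 motifs searched, namely the TATA box TATAAA, the CAAT box CCAAT, the GC box GGGCGG, the cyclic AMP element core TGACGT, the ETS core TTCCGG, the E-box CACGTG, the AP-1 site TGACTCA and the SMAD-type element CAGAC. No match overlaps another in these 2 sequences.
SRSF3: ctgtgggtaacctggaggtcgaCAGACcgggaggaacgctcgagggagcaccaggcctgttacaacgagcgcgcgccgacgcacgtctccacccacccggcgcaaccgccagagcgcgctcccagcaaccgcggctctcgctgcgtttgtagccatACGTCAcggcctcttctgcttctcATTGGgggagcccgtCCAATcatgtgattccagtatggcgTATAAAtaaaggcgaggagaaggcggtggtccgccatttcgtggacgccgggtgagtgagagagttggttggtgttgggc
SRSF6: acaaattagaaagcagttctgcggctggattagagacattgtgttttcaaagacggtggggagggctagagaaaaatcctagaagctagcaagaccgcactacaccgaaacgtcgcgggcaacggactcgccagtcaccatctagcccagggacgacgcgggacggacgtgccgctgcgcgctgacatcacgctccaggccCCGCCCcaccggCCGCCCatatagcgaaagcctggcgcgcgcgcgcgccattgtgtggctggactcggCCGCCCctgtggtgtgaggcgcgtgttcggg
SRSF3 held TATAAA, which 11.5% of 35116 promoters hold, TGACGT (7.98%), a pair of CCAAT (34.6%) and CAGAC (45.3%). It was the only one of 9 members with an entry to hold CCAAT. SRSF6 held GGGCGG 3 times and none of the other motifs, and 45% of promoters hold GGGCGG at least once. CACGTG (7.26%) and TGACTCA (4.95%) were in the promoter of no member. These are letter matches, and binding was not measured.

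Other genes of the same pathway were read from the same fit. Of 23 SR-related proteins, 17 had a fold change above 0, against 53.4% of all genes tested. An unadjusted p under 0.05 was found in 1 of them, against 7.93% of all genes. This was SREK1, an RS-domain regulator of splicing, at 0.30 ± 0.0937 on the log2 scale (adjusted p = 0.545, edgeR). PNN, a speckle protein, was at 0.23 ± 0.0999, and at 0.19 without AdSIRT4 replicate 1. U2AF1, the small subunit that reads the 3′ splice site, was at 0.42 ± 0.200 and at 0.16 without that replicate, with reads that near-identical copies can share. The median of this list was 0.087 with all samples and 0.11 without it. Without AdSIRT4 replicate 1, SREK1 (0.33, adjusted p = 0.0121) and SCAF8 (0.22, adjusted p = 0.0220) were higher and RSRC2 (-0.29, adjusted p = 0.00882) was lower, the last 2 named after their values were seen. In that fit 6.71% of all genes were called in either direction and 3.37% were called higher (edgeR).

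The 14 genes that phosphorylate SR proteins or carry them and their mRNA split evenly, 7 above and 7 below 0, with a median of -0.0051, which was -0.077 without AdSIRT4 replicate 1. NXF1, the export receptor that SRSF3 and SRSF7 contact, measured 43.3, 44.3 and 43.4 CPM in AdCtrl and 53.3, 52.9 and 48.7 CPM in AdSIRT4. The groups were apart, with a log2 fold change of 0.24 ± 0.0863 (adjusted p = 0.597, edgeR) and 0.21 without AdSIRT4 replicate 1. The kinase CLK4 was at -0.23 ± 0.124, and at -0.33 without that replicate. NXT1, the partner of NXF1, was at 0.39 ± 0.221 with all samples and at 0.080 without it. Without AdSIRT4 replicate 1, CLK1, a kinase of the same family as CLK4 and named after its value was seen, was called lower, at -0.21 with an adjusted p of 0.0354 (edgeR). It was the 1 gene of the 14 called, a share close to the 6.71% of all genes called in that fit. Of 12 hnRNP genes, whose proteins often oppose SR factors at exons, 11 were above 0 and none had an unadjusted p under 0.05. Over all genes tested these shares were 53.4% and 7.93%. Their median was 0.17 with all samples and 0.0010 without AdSIRT4 replicate 1, and the 3 with the smallest p, HNRNPH1, HNRNPA0 and HNRNPA1, were at 0.26, 0.25 and 0.29 with all samples and at 0.14, 0.038 and 0.032 without it.

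SRSF8 and SRSF12, family genes outside the 10 members and looked at after their values were known, were at 0.087 ± 0.122 and -0.21 ± 0.159 with all samples. SRSF8 turned to -0.032 without AdSIRT4 replicate 1, and SRSF12 was then at -0.38. Among 8379 genes with a mean of at least 20 CPM, the 3 whose pattern over the 6 samples was nearest to the members' mean pattern were DDX5, MIB2 and DCUN1D5, with root mean square differences of 0.017, 0.021 and 0.021 on the log2 scale after centring on AdCtrl. DDX5, an RNA helicase of the splicing machinery, measured 380.7, 383.6 and 362.2 CPM in AdCtrl and 535.0, 419.3 and 418.7 CPM in AdSIRT4. AdSIRT4 replicate 1 was its highest sample, and replicates 2 and 3 were above every AdCtrl sample, the pattern it was chosen for.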

How the data were processed

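Poly-A mRNA of 6 HK2 samples was sequenced on a DNB platform. The authors deposited raw counts for 38100 genes and, in a further table, values for these genes that were read as FPKM from its values since its unit is not named. The submitters' processing notes name hg38, fastp 0.21.0, HISAT2 2.1.0, StringTie 2.1.5 and DESeq2 1.30.1 without their roles, and strand use is not given in the sources used here. Each sample's cell-line label ends in another number, while all titles say HK2. The study's checklist calls n in vitro technical replicates, so p-values may measure technical spread only.

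Counts were tested with edgeR 4.0.16 in R 4.3.3 (filterByExpr with a minimum count of 10, TMM, robust quasi-likelihood test, Benjamini-Hochberg adjustment over 17720 genes, threshold 0.05). Single levels and shares were compared by two-sided exact permutation tests. DESeq2 1.42.0, limma 3.58.1 on log2(FPKM + 1) and with voom sample weights, RLE scaling, 2 other filters, the replicate block, removal of each library's length trend and leaving out each sample were alternatives. Weighted length needed 200 counts in every sample and was tested with limma. Each library's lengths were first brought to a common median on the log2 scale, so a sample's kb values are relative to its other genes. Fold changes on log2(FPKM + 1) understate changes of low genes. The procedure was also run on simulated data with a capped dispersion. The outcome is not given here, so it lends nothing to the calls. Deviations from the group means correlated across genes at 0.178, 0.159 and 0.176 between samples of the same number and at -0.188 to 0.030 otherwise. For the block fits the numbers were taken to pair the samples. These correlations are weak, centring within a group ties them to each other, and the sample titles state no pairing.

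Members and lists were chosen with earlier results of these data known. Named genes were the members, SIRT4, the 3 genes of each pathway list with the smallest p and the 3 nearest patterns. SCAF8, RSRC2, CLK1, SRSF8, SRSF12 and MFSD11 were named outside this rule, after their values were seen. Tables and figures used Python 3.11.15, pandas 2.3.3, scipy 1.17.1 and matplotlib 3.10.9, with GENCODE 29 and RefSeq annotation.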

Additional observations from a re-analysis of the deposited data

How the results depend on the processing

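The number of members with an adjusted p under 0.05 was 0 with all samples and 1 with DESeq2 and 2 with voom sample weights. It ran from 0 to 2 with each sample left out in turn, where the 2 were SRSF3 and SRSF6 without AdSIRT4 replicate 1, and was 2 with the length trend removed without that replicate. With the replicate block it was 0, and 3 without AdSIRT4 replicate 1, and the block changed no other call. The members with an unadjusted p under 0.05 numbered 3 in the main fit. On log2(FPKM + 1) over all genes they numbered 0 with and without the replicate block. They were 3 once genes of mean FPKM under 1 were dropped, and 2 on log2(FPKM + 0.1). DESeq2, voom sample weights and the length trend removed with the block each gave 4, and the block without AdSIRT4 replicate 1 gave 5. With single samples left out they numbered 1 to 4, the 1 being without AdCtrl replicate 3. The fit with the block and without AdSIRT4 replicate 1 kept 1 residual degree of freedom and was chosen after the data had been seen, as was the length correction without that replicate.

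SRSF4 was at -0.10 on log2(FPKM + 1), also with the block or after dropping genes of mean FPKM under 1, and on log2(FPKM + 0.1). It was at -0.0056 to 0.087 with single samples left out. SRSF9 was at -0.049 to 0.37 with single samples left out, -0.012 without AdSIRT4 replicate 1 with the block and -0.040 without it with the length trend removed. The cause of these changes was not tested. The other 8 members kept their direction under all 20 alternatives, and the median log2 fold change of the members ran from 0.073 to 0.39. Members whose groups did not overlap numbered 5 to 7 over the scalings and left-out samples tried. On counts the share of the 17720 genes tested ran from 19.4% with all samples to 41.8% without AdSIRT4 replicate 1. On FPKM 5 members were apart and the share was 9.47%. That share is over all 38100 genes, including those too low to be tested, so it does not compare with the other shares. Depth and the number of samples were not varied.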
